A study of Mus musculus with 9 samples.

Results

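The Cyp2c genes encode a family of cytochrome P450 enzymes, and the 10 members described here are Cyp2c29, Cyp2c37, Cyp2c38, Cyp2c39, Cyp2c40, Cyp2c50, Cyp2c54, Cyp2c55, Cyp2c69 and Cyp2c70. They were chosen by name, as drug-metabolism genes of 1 chromosomal cluster, and make up 10 of the 32285 genes in the deposited table. All 10 passed the filter on low values, a mean of at least 10 normalized counts over the 9 libraries, which left 12100 genes. Cyp2c55 passed it only through the drug-treated libraries.

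The study compared doxycycline (Dox) with tetracycline (Tc), 2 antibiotics that switch Tet-controlled transgenes, for what each does to the transcripts of the liver. The 3 groups of 3 liver libraries came from Tet-OFF mice, which carry a PB CAG-CreERT2 allele and, at Rosa26, an LSL-tTA allele and a reporter allele in which tetO drives Venus and mCherry. Control mice received tamoxifen alone. The other groups received tamoxifen and then Dox hyclate or Tc hydrochloride at 2 mg/mL in sucrose-supplemented drinking water for 7 days. An age of 4 weeks is given for all 3 groups, and in the drug groups the drug was given from that age. No day of collection is given for Control in the sources used here, so whether its livers were taken at the same age is not known. Male mice are named for this experiment, and the Y-linked genes Ddx3y, Kdm5d, Uty and Eif2s3y were detected in all 9 libraries. Either drug also stops tTA from driving Venus, so an effect of the drug and of losing Venus cannot be told apart. Whether the control mice drank sucrose is not given in the sources used here, and the alleles were made in hybrid ES cells, so differences in strain background between livers were not tested.

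Depth, as whole reads recovered from the table, was 8250804 to 10912338 in Control, 7426136 to 10330238 in Dox and 10216627 to 12183041 in Tc libraries. In every group a mixture of libraries 1 and 2 described library 3 closely, with weights of 58.4% and 41.7% in Control, 61.3% and 34.5% in Dox and 61.2% and 36.9% in Tc. Of the genes over 2-fold apart between libraries 1 and 2, library 3 lay between them for 501 of 586 in Control, 4139 of 4264 in Dox and 962 of 1022 in Tc. For the 10 Cyp2c genes it lay between them in 22 of 30 cases. A group may thus hold fewer than 3 independent measurements. Calls of the 10 Cyp2c genes are given with and without libraries 3, and calls of other genes are from all 9 libraries unless stated.

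CYP2C enzymes are heme proteins of the hepatocyte endoplasmic reticulum that take electrons from P450 oxidoreductase (Por) and insert oxygen into drugs, arachidonic acid, linoleic acid, retinoids and steroids. In liver their genes are driven by the hepatocyte factor HNF4A and are inducible through the xenobiotic receptors CAR (Nr1i3) and PXR (Nr1i2). Several mouse members differ between the sexes, under the pattern of growth hormone secretion.

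All 10 members lie on chromosome 19 of GRCm38 (mm10) and code for protein. From low to high coordinate on the plus or minus strand they were Cyp2c55 (ENSMUSG00000025002, 39007019-39042693), Cyp2c29 (ENSMUSG00000003053, 39269405-39330713), Cyp2c38 (ENSMUSG00000032808, 39389556-39463075), Cyp2c39 (ENSMUSG00000025003, 39510862-39568529) and Cyp2c40 (ENSMUSG00000025004, 39767071-39812814). These were followed by Cyp2c69 (ENSMUSG00000092008, 39842814-39886799), Cyp2c37 (ENSMUSG00000042248, 39992424-40012243), Cyp2c54 (ENSMUSG00000067225, 40037940-40073827), Cyp2c50 (ENSMUSG00000054827, 40089688-40113950) and Cyp2c70 (ENSMUSG00000060613, 40153353-40187333). Cyp2c38, Cyp2c40, Cyp2c54, Cyp2c69 and Cyp2c70 are on the minus strand. Exons of Cyp2c29 overlap those of the pseudogene Cyp2c53-ps on the same strand over 142 bases, and Cyp2c55 overlaps the antisense gene Gm23800 over 64 bases.

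Near-identical copies limit how firmly single genes could be counted. Coding sequences were 62.5% to 97.9% identical between members, with Cyp2c40 and Cyp2c69 at 97.9%, Cyp2c37 and Cyp2c50 at 96.1%, Cyp2c50 and Cyp2c54 at 95.2% and Cyp2c38 and Cyp2c39 at 94.2%. The authors counted uniquely mapped reads of 86 bases. Of all 86-base windows along the longest coding transcript, 51.1% of Cyp2c40 and 39.5% of Cyp2c69 were found unchanged in the transcripts of another gene (each other, Cyp2c67 or Cyp2c68), so reads from these windows could not be assigned. The share was 13.4% for Cyp2c50, 10.3% for Cyp2c54 and 8.22% for Cyp2c37, under 1% for Cyp2c38 and Cyp2c39, and 0 for Cyp2c29, Cyp2c55 and Cyp2c70. The values of Cyp2c40 and Cyp2c69, and less so of Cyp2c37, Cyp2c50 and Cyp2c54, therefore lack reads from shared windows. They are lower limits only if no reads were placed on the wrong copy, which was not tested.

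RefSeq promoter windows of GRCm38.p6, from 250 bases before to 50 bases after a start, were found for 9 of the 10 members, in 10 windows. The HNF4 site CAAAGTNCA, searched on both strands, was in 5 of the 10 windows, those of Cyp2c37, Cyp2c40, Cyp2c50, Cyp2c69 and Cyp2c70, and in 1.41% of all 32851 windows. The member windows are not independent of each other. Stretches of Cyp2c40 and Cyp2c69 are much alike, as are those of Cyp2c37 and Cyp2c50, and Cyp2c39 is counted more than once. The STAT motif TTCNNNGAA was in 0 of the 10 and 8.3% of all windows. Stretches before the start are printed 5′ to 3′, without annotated exon bases, with the HNF4 site in capitals. The pair Cyp2c40 and Cyp2c69 (chr19:39812815-39813064 and chr19:39886800-39887019, minus strand) is shown because both fell in Dox livers:
Cyp2c40: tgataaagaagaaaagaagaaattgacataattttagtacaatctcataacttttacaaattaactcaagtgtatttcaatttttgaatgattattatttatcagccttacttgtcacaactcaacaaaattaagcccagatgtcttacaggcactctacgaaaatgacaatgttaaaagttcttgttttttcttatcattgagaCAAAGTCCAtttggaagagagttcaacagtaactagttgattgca
Cyp2c69: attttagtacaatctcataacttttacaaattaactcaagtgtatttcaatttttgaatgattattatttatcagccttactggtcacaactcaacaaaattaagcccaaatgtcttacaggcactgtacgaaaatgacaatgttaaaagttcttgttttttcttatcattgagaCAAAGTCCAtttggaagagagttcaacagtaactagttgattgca
These aligned over 220 bases with 3 mismatches, and the site began 45 bases before the end of both stretches. In Dox 2 and Dox 3, though not in Dox 1, the ratio of Cyp2c37 to Cyp2c50 left the Control range. Their stretches (chr19:39992174-39992423 and chr19:40089429-40089678, plus strand) are shown for that reason:
Cyp2c37: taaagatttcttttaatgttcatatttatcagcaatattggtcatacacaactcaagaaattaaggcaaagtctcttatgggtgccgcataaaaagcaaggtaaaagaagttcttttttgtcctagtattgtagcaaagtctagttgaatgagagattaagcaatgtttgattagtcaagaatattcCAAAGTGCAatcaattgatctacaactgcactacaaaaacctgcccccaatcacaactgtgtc
Cyp2c50: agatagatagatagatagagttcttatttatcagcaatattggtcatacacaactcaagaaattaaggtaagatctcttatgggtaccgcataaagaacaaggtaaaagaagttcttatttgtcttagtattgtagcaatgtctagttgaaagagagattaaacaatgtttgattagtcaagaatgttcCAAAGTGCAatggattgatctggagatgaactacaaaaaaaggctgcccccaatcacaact
These aligned over 245 bases with 30 mismatches. Cyp2c29 (chr19:39286835-39287043, plus strand) and Cyp2c70 (chr19:40187334-40187536, minus strand) are shown because they gave the largest share of Cyp2c transcripts in Dox and in Control livers respectively:
Cyp2c29: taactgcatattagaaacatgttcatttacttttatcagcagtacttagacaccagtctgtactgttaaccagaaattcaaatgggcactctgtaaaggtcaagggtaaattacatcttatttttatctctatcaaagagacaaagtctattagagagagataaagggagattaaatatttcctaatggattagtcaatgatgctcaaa
Cyp2c70: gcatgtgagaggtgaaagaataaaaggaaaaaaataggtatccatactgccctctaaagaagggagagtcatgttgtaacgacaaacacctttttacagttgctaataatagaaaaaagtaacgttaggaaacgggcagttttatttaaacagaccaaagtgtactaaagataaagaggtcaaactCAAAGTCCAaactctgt
The Cyp2c29 stretch held no HNF4 site of these letters. A match is a string of letters and was not tested as a bound site.

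The summed level of the 10 genes overlapped between groups, while the shares of single genes moved apart. Per library the sum was 29568, 21231 and 28863 normalized counts in Control, 34279, 20524 and 28626 in Dox and 28670.3, 19308 and 20852 in Tc. The groups overlapped. Means were 26554 ± 4623 (SD, n = 3) in Control, 27809 ± 6914 in Dox and 22944 ± 5019 in Tc, so that Dox was 1.05 times Control, Tc 0.864 times Control and Dox 1.21 times Tc. The exact two-sided permutation p was 1.0, 0.2 and 0.5 in that order, where 3 against 3 libraries cannot go below 0.1.

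In Control livers Cyp2c70 gave the largest share of the sum, and in Dox livers Cyp2c29. Cyp2c70 held 38.5%, 43.8% and 40.2% of the sum in Control, 15.3%, 4.18% and 12.4% in Dox and 20.2%, 27.2% and 21.9% in Tc libraries. Cyp2c29 held 16.6%, 15.4% and 15.4% in Control, 51.4%, 40.9% and 48.5% in Dox and 45.1%, 19.4% and 39.9% in Tc. For both genes no drug-treated library fell within the Control range, and Tc 2 was the nearest to it. Cyp2c40 held 7.24% to 8.53% in Control, 0.476% to 1.31% in Dox and 2.61% to 7.94% in Tc, while Cyp2c54 stayed between 3.74% and 5.86% in all libraries. These shares are a description, since a share of 1 gene moves with the counts of the others.

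**Figure D1:**
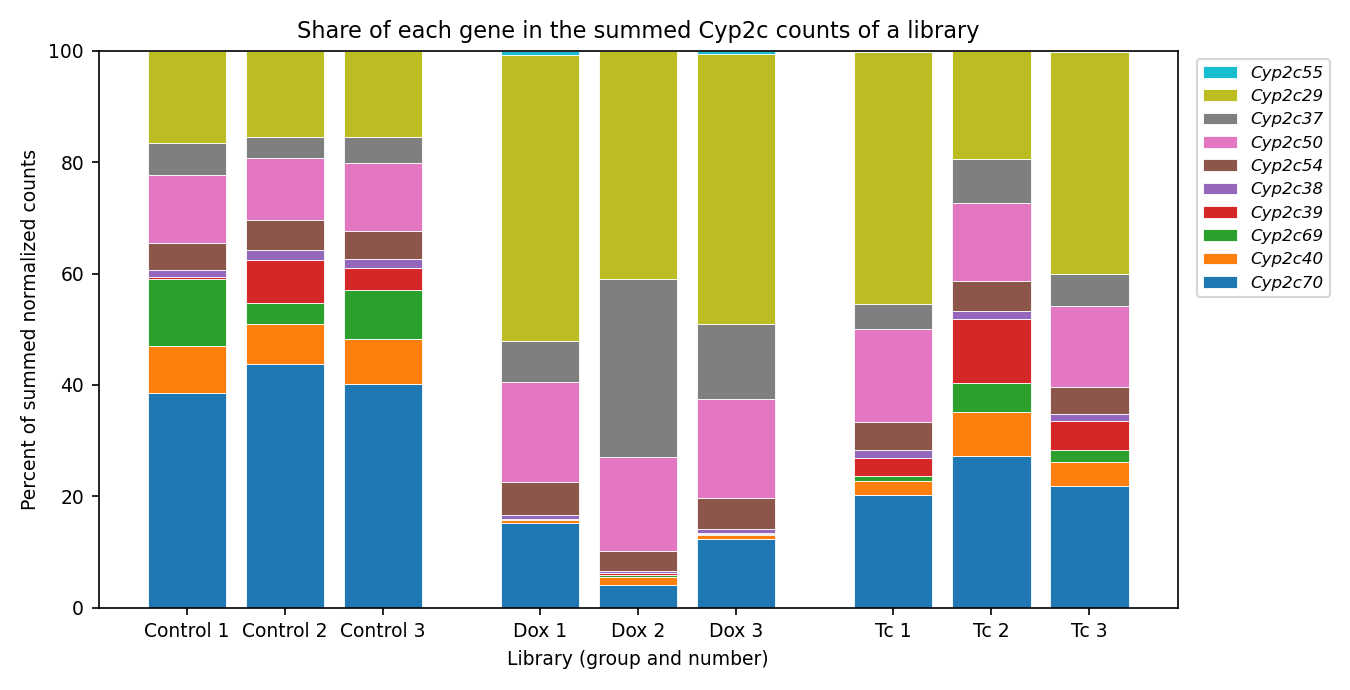
Stacked bars give, for each of the 9 libraries on the x axis, the percent of the summed normalized counts of the 10 genes that each gene contributed. Cyp2c70, at the base, is 38.5% to 43.8% of the bar in Control and 4.18% to 15.3% in Dox, and Cyp2c29, near the top, is 15.4% to 16.6% in Control and 40.9% to 51.4% in Dox.

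Per kilobase of the longest coding transcript, which allows levels of different genes to be set side by side, the order in Control was Cyp2c70, Cyp2c29, Cyp2c50, Cyp2c69, Cyp2c40, Cyp2c54, Cyp2c37, Cyp2c39, Cyp2c38 and Cyp2c55. Cyp2c70 stood at 6268 ± 744 normalized counts per kilobase (SD, n = 3), clear of Cyp2c29 at 2364 ± 477, and Cyp2c38 at 145 ± 26.0 stood clear of Cyp2c55 at 1.71 ± 1.28. The ranges of Cyp2c40 and Cyp2c54 did not meet either, and other neighbours in the Control order overlapped. Reads from windows shared with another gene were not counted, which touches Cyp2c40 and Cyp2c69 above all. Their places in these orders may be too low, unless reads of another copy were placed on them. In Dox the order opened with Cyp2c29 at 7463 ± 2604, clear of Cyp2c50 at 2711 ± 760, and went on with Cyp2c37, Cyp2c70, Cyp2c54, Cyp2c40, Cyp2c55, Cyp2c38, Cyp2c69 and Cyp2c39. There only the steps from Cyp2c29 to Cyp2c50 and from Cyp2c54 to Cyp2c40 were free of overlap. In Tc the order was Cyp2c29, Cyp2c70, Cyp2c50, Cyp2c39, Cyp2c37, Cyp2c54, Cyp2c40, Cyp2c69, Cyp2c38 and Cyp2c55, and Cyp2c29 at 4674 ± 2579 overlapped Cyp2c70 at 3031 ± 354.

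Dox was first compared with Control. Of the 10 Cyp2c genes 5 were called in the limma fit over all 9 libraries, at a fold change over 2 and an adjusted p under 0.05, against 5.0% of all genes tested. Cyp2c37 and Cyp2c55 rose, while 1.14% of all genes did, and Cyp2c39, Cyp2c40 and Cyp2c69 fell, against 3.86% of all genes. Cyp2c55 entered the test only through the drug-treated libraries, so it had to be higher there and is not read against these shares. Of the other 9 genes 4 were called. The groups did not overlap for 8 of the 10 genes, Cyp2c55 among them, against 33.3% of all genes. Cyp2c55 is also among the genes counted below by unadjusted p and by DESeq2, and is not read against those shares either. With 1 library left out the count ran from 1, without Control library 3, to 8, without Dox library 2, where 0.273% and 9.11% of all genes were called. Of the 10 genes 8 had an unadjusted p under 0.05, against 29.1% of all genes. The median log2 fold change of the 10 was −0.83, and that of all genes tested was 0.00010. Without libraries 3, limma called 0 genes of all 12100 (0.0%), and 7 of the 10 Cyp2c genes had an unadjusted p under 0.05 against 8.6% of all genes. DESeq2 on the recovered reads called 8 of the 10 in all libraries, against 9.37% of genes, and without libraries 3 it called Cyp2c39, Cyp2c40, Cyp2c55 and Cyp2c69, against 1.19% of genes.

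**Figure D2:**
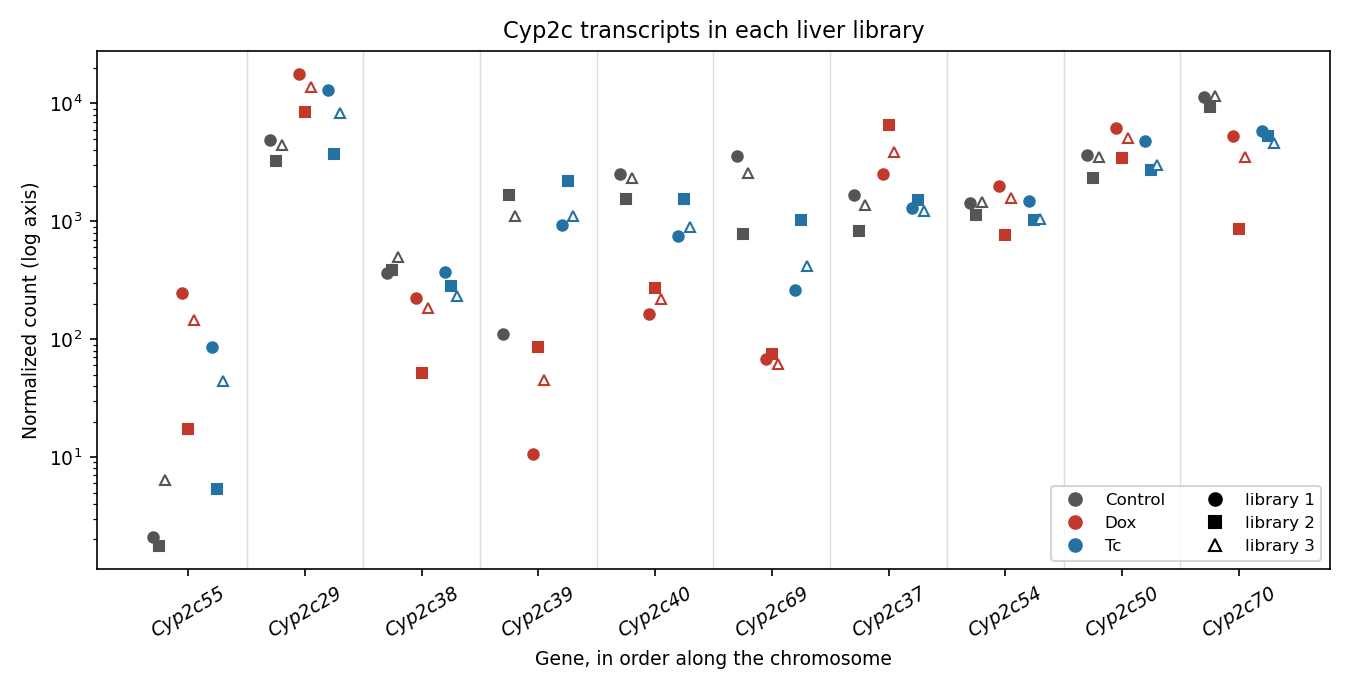
Points give the normalized count (log y axis) of each gene in each library, by group (colour) and library number (symbol, open for library 3), with genes in chromosomal order on the x axis. The 3 Dox libraries of Cyp2c40 sit between 163 and 269, under all Control and Tc libraries, and those of Cyp2c55 between 17.3 and 245, above Control at 1.77 to 6.36.

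Cyp2c40, which oxidizes arachidonic acid, had 2521, 1538 and 2311 normalized counts in Control, 163, 269 and 218 in Dox and 747, 1533 and 894 in Tc. All Dox libraries lay far under the rest, and every Tc library lay under every Control library, Tc 2 by little. It fell in Dox by 3.28 on the log2 scale (SE 0.31, limma adjusted p = 0.0047), a 9.79-fold lower mean. It was also called without libraries 3 by DESeq2 (log2 fold change −3.23, adjusted p = 6.53e-06).

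Cyp2c69, its closest copy and a gene of female-biased expression in adult mice, had 3558, 778 and 2553 normalized counts in Control, 68.4, 74.8 and 61.6 in Dox and 263, 1023 and 421 in Tc. Dox livers were low and alike, whereas Control and Tc livers spread widely and overlapped each other. It fell in Dox by 4.80 (SE 0.61, limma adjusted p = 0.0074), and by DESeq2 without libraries 3 the log2 fold change was −4.92 (adjusted p = 1.29e-05). The ratio of Cyp2c69 to Cyp2c40 was 0.506 to 1.41 in Control, 0.278 to 0.419 in Dox and 0.352 to 0.667 in Tc libraries.

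Cyp2c39, a retinoic acid hydroxylase, had 111, 1659.7 and 1116 normalized counts in Control, 10.5, 86.3 and 44.9 in Dox and 928, 2213 and 1118 in Tc. Control 1 stood far under the other Control libraries and near Dox 2, yet no Dox library reached it. Cyp2c39 fell in Dox by 4.05 (SE 1.05), at a limma adjusted p of 0.0499, just inside the threshold, and DESeq2 without libraries 3 gave −4.19 (adjusted p = 0.0473). Its neighbour Cyp2c38, which also acts on arachidonic acid, had 361, 387 and 501 in Control, 223, 51.8 and 183 in Dox and 374, 279.7 and 232 in Tc. Every Dox library of Cyp2c38 was under every other library, and the log2 fold change against Control of −1.67 (SE 0.49) did not pass (limma adjusted p = 0.0656).

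Cyp2c70, which turns chenodeoxycholic acid into muricholic acids and so sets the bile acids particular to mice, had 11382, 9293 and 11609 normalized counts in Control, 5243, 858 and 3536 in Dox and 5789, 5247 and 4576 in Tc. All drug-treated livers were under all Control livers, and Dox 2 was lowest by far. The log2 fold change of Dox against Control was −2.09 (SE 0.56) and missed the threshold (limma adjusted p = 0.0545).

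Cyp2c29, an abundant CAR-inducible enzyme that forms epoxides from arachidonic acid, had 4917, 3269.8 and 4457 normalized counts in Control, 17631, 8401 and 13887 in Dox and 12942, 3745 and 8313 in Tc. Dox livers all lay above Control, and Tc 2 lay within the Control range. Dox against Control was 1.61 (SE 0.45) on the log2 scale and 3.16 as a ratio of means, and narrowly missed the threshold (limma adjusted p = 0.0606).

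Cyp2c37, Cyp2c50 and Cyp2c54 are close relatives that oxidize arachidonic or linoleic acid. Cyp2c37 had 1665, 819 and 1374 normalized counts in Control, 2508, 6553 and 3847 in Dox and 1304, 1511 and 1216 in Tc, and was highest in Dox 2, the liver where Cyp2c70 was lowest. It rose in Dox by 1.69 (SE 0.36, limma adjusted p = 0.0291), a call that DESeq2 without libraries 3 did not make (adjusted p = 0.0997). Cyp2c50 had 3620.1, 2348 and 3485 in Control, 6177, 3445 and 5114 in Dox and 4754, 2727 and 3002 in Tc, and the groups overlapped. Its log2 fold change in Dox was 0.63 (SE 0.30, limma adjusted p = 0.200). Cyp2c54 had 1430.1, 1138 and 1449 in Control, 2009, 767 and 1589 in Dox and 1486, 1023 and 1036 in Tc, with a log2 fold change in Dox of 0.018 and a 95% interval from −0.74 to 0.78. The ratio of Cyp2c37 to Cyp2c50 was 0.349 to 0.460 in Control. Dox libraries gave 0.406, 1.90 and 0.752, so that Dox 1 lay within the Control range.

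Cyp2c55, another arachidonic acid oxidase known as inducible through CAR and PXR, was at the edge of detection in Control, with 2, 2 and 5 reads, and had 233, 15 and 165 reads in Dox and 87, 6 and 52 in Tc. As normalized counts these were 2.12, 1.77 and 6.36 in Control, 245, 17.3 and 145 in Dox and 84.96, 5.40 and 43.8 in Tc. Every Dox library was above Control, and in both drug groups library 2 was the lowest. Cyp2c55 was higher in Dox by 4.45 (SE 1.15). This size depends on the pseudocount and test, and ran from 3.14 to 6.08 over 21 alternatives. Its limma adjusted p was 0.0499, but it entered the test only through the drug-treated libraries. That entry already required it to be higher there, so this p is a description and no separate evidence of a rise.

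**Figure D3:**
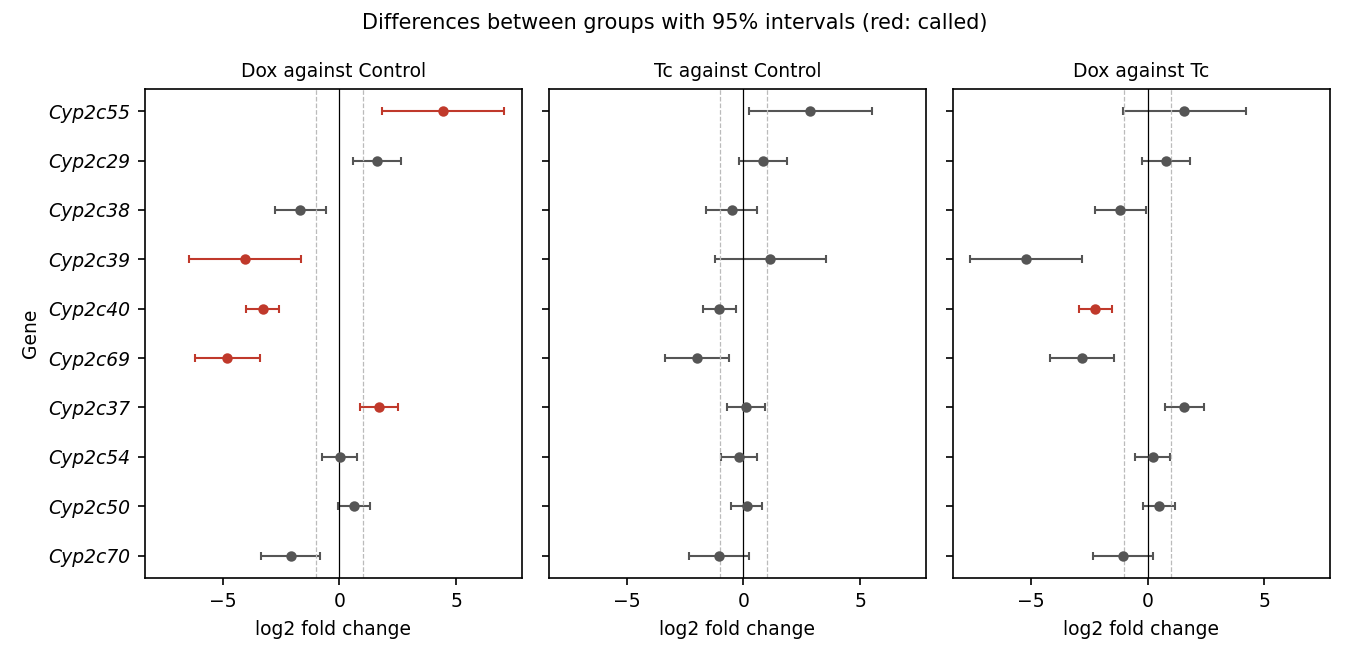
Points give the log2 fold change of each gene in the 3 comparisons and bars its 95% confidence interval, from limma on log2(normalized count + 1), with called genes in red and dashed lines at a 2-fold change. In Dox against Control 5 genes are red, and in Dox against Tc only Cyp2c40, at −2.24.

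In Tc against Control 0 of the 10 genes were called, against 0.165% of all genes tested, and 3 had an unadjusted p under 0.05, against 11.7% of all genes. The 3 were Cyp2c40 (log2 fold change −1.04, limma adjusted p = 0.270), Cyp2c69 (−1.99, adjusted p = 0.281) and Cyp2c55 (2.87, adjusted p = 0.400). Cyp2c55 is again not read against the shares of all genes. Groups did not overlap for 2 of the 10 genes, Cyp2c40 and Cyp2c70, both lower in Tc, against 30.7% of all genes. DESeq2 called Cyp2c55 and Cyp2c69 in all 9 libraries, against 1.58% of genes, 0 of the 10 without libraries 3, against 0.0744%, and edgeR called 0 of them. Cyp2c29 was at 0.83 in Tc (95% interval −0.20 to 1.86) and Cyp2c70 at −1.05 (−2.32 to 0.23), while Cyp2c37 was at 0.12 (−0.71 to 0.94). Cyp2c39 had a higher mean in Tc than in Control, at 1.16 (−1.23 to 3.54), and without Control library 1 the difference was −0.045.

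Dox and Tc, which differ in the ring carbon that bears a hydroxyl group, were given at the same dose for the same time, and the 10 genes were compared between them in the same fit. Cyp2c40 was called, 2.24 lower in Dox on the log2 scale (95% interval −2.95 to −1.53, limma adjusted p = 0.0498), against 0.215% of all genes called. When the library number was added to the fit as a further term, called the replicate block here, its adjusted p was 0.101 and 0 members were called, against 0.0165% of all genes. Of the 10 genes 5 had an unadjusted limma p under 0.05, against 21.7% of all genes. DESeq2 called 4 of the 10 in all libraries, against 5.03% of genes, and without libraries 3 it called Cyp2c39 and Cyp2c40, against 0.264% of genes. Groups did not overlap for Cyp2c37, which was higher in Dox, and for Cyp2c38, Cyp2c39, Cyp2c40 and Cyp2c69, which were lower, 5 of 10 against 24.6% of all genes.

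The other 9 genes did not pass between the 2 drugs, some with wide intervals. Cyp2c39 differed by −5.20 (95% interval −7.59 to −2.81, limma adjusted p = 0.0857), Cyp2c69 by −2.81 (−4.20 to −1.43, adjusted p = 0.0919) and Cyp2c37 by 1.57 (0.75 to 2.40, adjusted p = 0.1004). Cyp2c29 differed by 0.78 (−0.25 to 1.81), Cyp2c70 by −1.04 (−2.32 to 0.24), Cyp2c38 by −1.17 (−2.27 to −0.06) and Cyp2c55 by 1.58 (−1.04 to 4.20). Cyp2c50 at 0.49 (−0.18 to 1.17) and Cyp2c54 at 0.21 (−0.55 to 0.97) had the smallest differences. Both drug groups were set against the same Control libraries, so the 2 comparisons with Control are not independent.

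Livers of 1 group differed among themselves in these genes. Libraries 1 and 2 were over 2-fold apart for 7 of the 10 genes in Dox, against 35.2% of all genes, for 5 in Tc, against 8.45%, and for 3 in Control, against 4.84%. In both Dox and Tc, library 1 had more Cyp2c29, Cyp2c38, Cyp2c50, Cyp2c54, Cyp2c55 and Cyp2c70 than library 2, and less Cyp2c37, Cyp2c39, Cyp2c40 and Cyp2c69. By normalized counts the order of libraries 1 and 2 was thus the same in the 2 drug groups for 10 of 10 genes, against 55.0% of all genes, and 6 of 10 had the same order in Control and Dox, against 50.9%. For Cyp2c69 in Dox the order rests on the scaling alone, since Dox 1 and Dox 2 had 65 reads each. The members sit in 1 cluster, several share stretches of sequence, and they are not independent of each other.

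Of the other Cyp2c genes in the table, 3 were detected, and limma and DESeq2 called 0 of them in any comparison, with 1 of 3 at an unadjusted p under 0.05 by either tool in Dox against Control. Cyp2c23 had 2915, 1341 and 2206 normalized counts in Control, 6137, 75.9 and 3799.8 in Dox and 4017, 2044 and 2891 in Tc. Cyp2c67 had 869, 675 and 815 in Control, 2672, 115 and 1572 in Dox and 2200.1, 740.1 and 1399.8 in Tc, so in both genes Dox 2 was the lowest library of all. Cyp2c68 had 2544, 1535 and 2224 in Control, 1218, 1238 and 1217 in Dox and 1639, 1493 and 1307 in Tc, and its log2 fold change in Dox of −0.75 (limma adjusted p = 0.0469) was under the 2-fold limit. Cyp2c65 had under 4 normalized counts in each library and Cyp2c66 was at 0 in all.

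Genes of the same pathway were taken from lists. Of 18 nuclear receptors and hepatocyte factors limma called 0 in any comparison, with 4 of 18 at an unadjusted p under 0.05 in Dox against Control, where 29.1% of all genes were. At that limit there were 4 in Tc against Control, against 11.7% of all genes, and 7 in Dox against Tc, against 21.7%. DESeq2 called 1, the coactivator gene Ppargc1a, higher in Dox than in Control and in Tc. Without libraries 3 it called 0 of the 18 in any comparison. Ppargc1a, chosen after its values were seen, had 204, 82.3 and 135 normalized counts in Control, 108, 1463 and 604 in Dox and 126, 151 and 138 in Tc, so that Dox 1 lay within the Control range. The CAR gene Nr1i3 had 741, 855 and 805 normalized counts in Control, 1340.4, 673 and 1123 in Dox and 1471, 1486 and 1481 in Tc, the PXR gene Nr1i2 was between 597 and 1136 in all 9 libraries, and Hnf4a reached 20158 in Dox 2 against 9118 to 12866 elsewhere. Of 5 electron transfer partners limma and DESeq2 called 0 in any comparison, with 0 by limma and 1 by DESeq2 at an unadjusted p under 0.05 in Dox against Control, and Por had 7508, 4231 and 5726 in Control, 4128, 26717 and 12017 in Dox and 6797, 7601 and 7852 in Tc. Dox 2 was again the library apart, here the highest.

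Among 9 epoxide hydrolases and arachidonic acid enzymes, Ephx1, the microsomal epoxide hydrolase, was the 1 gene that rose in Dox, from 501, 978 and 739 to 6141, 1279 and 4226 (log2 fold change 2.17, SE 0.56, limma adjusted p = 0.0490), and it had 3357, 1571 and 2794 in Tc. Ephx2, the soluble hydrolase that opens the epoxides CYP2C enzymes make, was 0.73 higher in Dox (adjusted p = 0.1004). By DESeq2 3 of the 9 rose, where it called 400 of all 12100 genes higher and 734 lower. Of 15 tested targets of CAR and PXR outside the cluster 4 rose and 1 fell in Dox by limma, where 1.14% and 3.86% of all genes did, and by DESeq2 5 rose and 2 fell. The 4 were the steroid hydroxylase gene Cyp3a25 (1.48), Cyp2a5 (3.47), a coumarin hydroxylase, and the glutathione transferases Gsta2 (4.14) and Gstm1 (1.83), and the sulfotransferase Sult5a1 fell by 2.47 on the log2 scale. Cyp2b10, the classic CAR target, had 149, 220.3 and 187 in Control, 22.1, 7464 and 2572 in Dox and 27.3, 70.1 and 28.6 in Tc, and did not pass in limma (2.05, adjusted p = 0.468), whereas DESeq2 called it. Cyp3a11, the main PXR target, had 22381 to 30602 in Control and 38501 to 41887 in Dox (0.57, adjusted p = 0.221). Without libraries 3, DESeq2 called Cyp2a5, Gsta2, Gstm1 and Sult5a1 but not Ephx1 (adjusted p = 0.147) or Cyp3a25 (adjusted p = 0.0558). It then called 1.19% of all genes. In Dox 2, where Cyp2c37 was highest and Cyp2c70 lowest, Cyp2b10, Cyp2a5, Por and Hnf4a were each higher than in any other library.

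**Figure D4:**
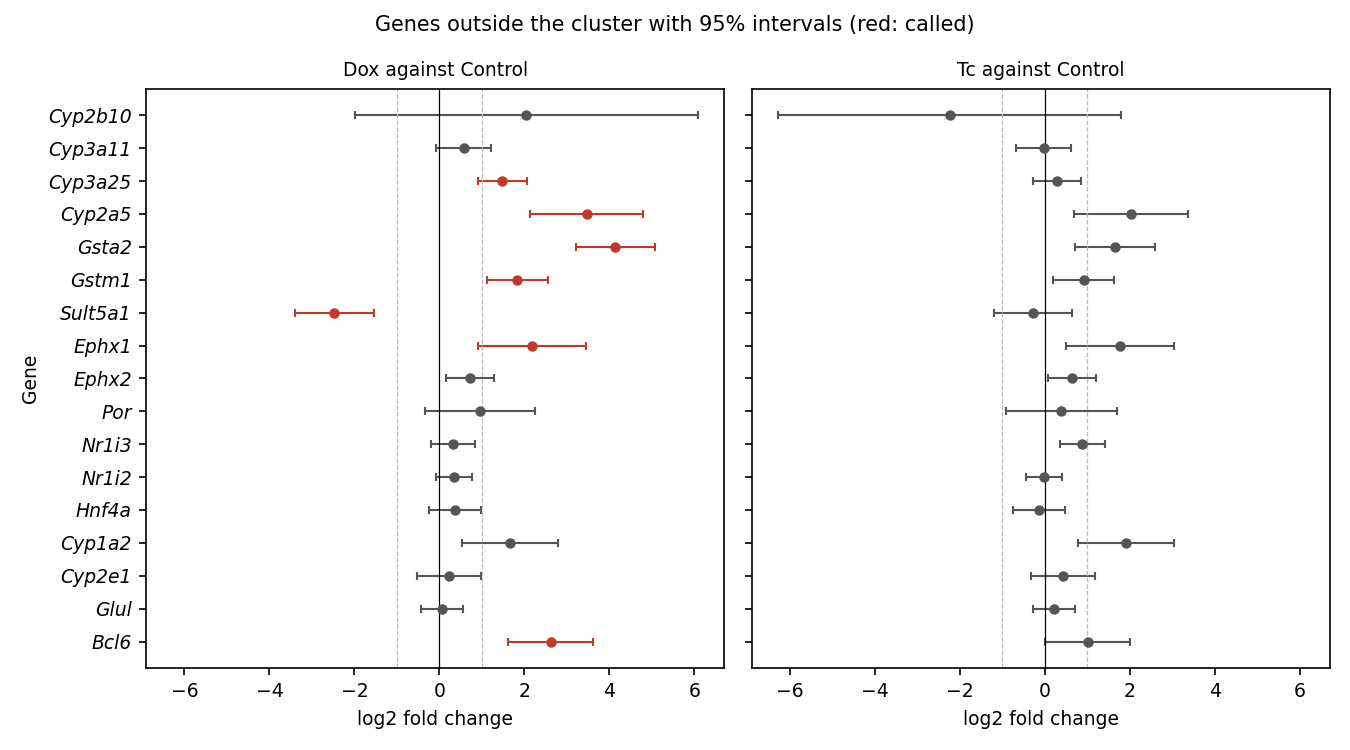
Points give the log2 fold change of genes outside the cluster in Dox and in Tc against Control and bars its 95% confidence interval, with called genes in red and dashed lines at a 2-fold change. Gsta2 at 4.14 and Cyp2a5 at 3.47 lie farthest right among called genes in Dox, and no gene is red in Tc.

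In the list of growth hormone and sex-biased genes, 1 of 15 rose and 2 fell in Dox by limma, where 1.14% and 3.86% of all genes did. By DESeq2 6 rose and 3 fell, where it called 400 of all 12100 genes higher and 734 lower. Sult1e1, among the 6, passed the filter only through Dox libraries. It had to be higher there and is not read against these counts. Bcl6, a repressor of female-biased genes, had 54.0, 75.2 and 64.8 normalized counts in Control, 341, 498 and 371 in Dox and 231, 58.5 and 163 in Tc (Dox 2.62, limma adjusted p = 0.0147). Cyp3a41a, a female-biased gene, had 951, 687 and 765 in Control, 0, 0 and 0.880 in Dox and 0, 767 and 314 in Tc (Dox limma adjusted p = 0.0324), and A1bg, another, had 1345, 136 and 750.1 in Control, 1.05, 2.30 and 1.76 in Dox and 3.91, 1141 and 449.7 in Tc (adjusted p = 0.0381). All 3 were also called by DESeq2 without libraries 3. As with Cyp2c40 and Cyp2c69, Cyp3a41a and A1bg were near their lowest in Dox livers, and Tc 1 was under Tc 2. Not every gene of the list did so. Cux2, named after its values were seen, had 1029, 269 and 689 in Control, 4.21, 1235 and 451 in Dox and 19.5, 132 and 72.4 in Tc, with its highest value in Dox 2. DESeq2 also called Mup20, Hsd3b5, Cyp4a12a, Cyp2d9 and Sult1e1, all with a higher mean in Dox, and Cyp2b9, lower. They are named after their values were seen. The Dox libraries split in several of them. Mup20 had 128, 343 and 252 in Control and 33770, 16.1 and 21123 in Dox. Hsd3b5 had 3.18, 30.1 and 3.81 against 2578, 0 and 1551. Sult1e1 had 3.18, 7.08 and 5.09 against 0, 2115 and 753. Of 11 pericentral genes, whose zone of the lobule holds most P450 expression, limma called 0 in Dox against Control with 4 at an unadjusted p under 0.05, where 29.1% of all genes were, and DESeq2 called Cyp1a2 and Oat, an ornithine aminotransferase gene, both higher in Dox. Rhbg, an ammonium transporter gene, was 1.23 lower in Dox than in Tc (limma adjusted p = 0.0498). Without libraries 3, limma and DESeq2 called 0 of the 11 in any comparison. Cyp2e1 and Glul, defining genes of that zone, were at 0.22 and 0.07 in Dox, and Cyp1a2 was at 1.66 (adjusted p = 0.0702).

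Markers of several liver cell types moved with the Dox group. In Dox against Control limma called 1.14% of all genes higher and 3.86% lower, and DESeq2 9.37% in either direction. The summed level of 11 hepatocyte markers was 1336795 to 1905632 normalized counts in Control, 695580 to 1045312 in Dox and 1040835 to 1587428 in Tc, and Fgb was the 1 of 11 that fell in Dox by limma. Most of that sum was Alb, the albumin gene, at 956160 to 1408836 in Control and 255547 to 607452 in Dox. Without Alb the sum of the other 10 overlapped between groups, at 380634 to 496796, 420097 to 440033 and 428097 to 494217 in Control, Dox and Tc. Single genes moved in opposite ways under this sum. In Dox 2, Cps1, Ass1, Hpd and Tat lay above all Control libraries, with Tat at 159364 against 11817 to 21169. Ttr, Apoa1, Apob, Serpina1c, Serpina1e and Fgb lay under all of them there, with Ttr at 6796 against 32044 to 37008. DESeq2 called 1 of the 11 markers, Tat, a tyrosine-degrading enzyme gene, higher in Dox and 3, Alb, Fgb and Serpina1e, lower. The sum of 10 Kupffer cell markers was 9880 to 18016 in Control, 2746 to 9216 in Dox and 4844 to 9512 in Tc, and Adgre1, Clec4f and Csf1r, 3 of 10, fell in Dox. The sum of 10 endothelial markers was 7245 to 7575, 3534 to 4182 and 5450 to 6486, and Cdh5, Stab1 and Stab2, 3 of 10, fell in Dox. Sums of 9 stellate cell markers overlapped between all groups. The sum of 8 cholangiocyte markers was 323 to 359 in Control, 268 to 495 in Dox and 378 to 467 in Tc, so that Tc lay above Control and Dox overlapped both, and the marker Sox9 rose in Dox while Cftr was at 0 in all Control libraries. The sum of 8 lymphocyte markers was 45.5 to 77.0 in Control, 23.2 to 28.2 in Dox and 27.3 to 43.2 in Tc, and the 1 of them tested, Cd79b, was called lower in Dox by DESeq2 but not by limma (unadjusted p under 0.05). Hepatocyte markers other than Fgb were named after their values were seen, as were Cd79b and the pericentral gene Oat. Of 5 neutrophil markers tested Mpo fell in Dox, and of 6 erythroid markers Hba-a1, Hba-a2, Hbb-bt and Slc4a1 fell. Without libraries 3, limma called 0 of all these markers in Dox against Control. DESeq2 then called Clec4f, Stab1, Stab2, Mpo, Hbb-bt and Slc4a1, all lower in Dox, against 1.19% of all genes. In Tc against Control limma called 0 of 56 markers tested, against 0.165% of all genes, with 16 at an unadjusted p under 0.05, against 11.7%. DESeq2 called 1 endothelial, 1 neutrophil and 5 erythroid markers, all lower in Tc, against 1.58% of all genes. Without libraries 3 it called 0 markers, against 0.0744%. In whole liver fewer cells of a type and less RNA per cell cannot be told apart, and the part of these shifts in the Cyp2c values was not tested.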

How the data were processed

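Total RNA from livers was made into directional libraries (NEBNext Ultra II) and sequenced as single-end 86-base reads. The authors trimmed reads with cutadapt, mapped them to mm10 with STAR 2.7.11ac and GENCODE annotation, counted uniquely mapped reads per gene with HTSeq 2.0.5 and scaled the counts with DESeq2 1.42.0. The strand setting of the counting is not given in the sources used here. The deposited values are the signal after this scaling, normalized counts per gene, and 32158 of 32285 gene identifiers had a symbol.

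Values were divided by the step of each library, which gave whole reads for all values at a tolerance of 0.01. The main test was limma 3.58.1 (R 4.3.3) with trend on log2(normalized count + 1), 1 fit of 9 libraries and Benjamini-Hochberg adjustment over the 12100 genes whose mean normalized count reached 10. Fold changes on this scale understate changes of low genes. Genes were called at a fold change over 2 and an adjusted p under 0.05. DESeq2 1.42.0 and edgeR 4.0.16 on recovered reads, other pseudocounts, filters, scalings and sample sets were alternatives. The fits were tested on simulated data. Sequences were aligned with Biopython 1.88.

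Named were the 10 members, genes of the other lists that the main limma fit called in any comparison, Nr1i3, Nr1i2, Hnf4a, Por, Ephx1, Ephx2, Cyp2b10, Cyp3a11, Cyp2e1, Cyp1a2, Glul and detected other Cyp2c genes whatever their result, and the 5 genes most correlated with Cyp2c29 and with Cyp2c55. Of list genes that only DESeq2 called, some were named after their values were seen and others were not named. Cux2 and the hepatocyte markers that neither tool called were also named after their values were seen. The members and lists were chosen with earlier results of these data known. The study calls the libraries of a group biological replicates, and p-values measure the spread between these libraries.

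The labels give every group replicate numbers 1 to 3. Deviations from the group means over genes correlated between same-numbered Dox and Tc libraries at 0.287, 0.321 and 0.182. Control libraries correlated with their numbers in Dox or Tc at −0.081 to 0.055. Deviations within a group are tied to each other and libraries 3 resemble mixtures, so the 3 correlations of Dox with Tc are not independent. They are a hint of pairing from the data only, and the main fit did not use the numbers. The replicate block was an alternative fit.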

Additional observations from a re-analysis of the deposited data

How the results depend on the processing

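Of 630 alternative values of the member fold changes, 537 kept direction and side of the threshold, 58 lost the call, 26 gained it and 9 changed sign. The changes of sign were in small differences or in Cyp2c39. In Dox against Control, Cyp2c54 went from 0.018 to −0.039 without libraries 3 and ran from −0.27 to 0.42 with 1 library left out (−0.09 without Control library 2, −0.27 without Dox library 1, −0.10 without Dox library 3), and in Dox against Tc it ran from −0.076, without Dox library 1, to 0.62. In Tc against Control, with 1 library left out, Cyp2c37 ran from −0.18 (without Control library 2) to 0.33, Cyp2c39 from −0.045 (without Control library 1) to 1.90, and Cyp2c50 from −0.11 (without Tc library 1, and −0.07 without Control library 2) to 0.29.

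The count of members called in Dox against Control was 5, and became 3 with no filter, 3 at a mean of at least 50, 0 without libraries 3, 2 with only the 2 groups compared, 0 with the replicate block in only those groups, 8 with DESeq2 and 1 to 8 with 1 library left out (1 without Control library 3, 2 without Control library 2, Dox library 3 or Tc library 3, 3 without Control library 1, 8 without Dox library 2). The share of all genes called, 5.0%, was then 3.2%, 3.93%, 0.0%, 2.75%, 0.0413%, 9.37% and 0.273% to 12.4%, the last without Dox library 1, where 5 members were called. In Tc against Control the count of 0 became 1 with only the 2 groups compared, 1 (Cyp2c70) with the replicate block in only those groups, 2 with DESeq2 and 0 to 1 with 1 library left out (1 without Dox library 2), where the share of all genes went from 0.165% to 2.28%, 2.75%, 1.58% and 0.00826% to 1.83%. In Dox against Tc the count of 1 became 0 with a pseudocount of 8 or 0.1, no filter, a mean of at least 50, the same total per library, no libraries 3, only the 2 groups compared, the replicate block with or without the other group, or edgeR. It became 4 with DESeq2, 2 with DESeq2 without libraries 3, and 0 to 5 with 1 library left out (5 without Dox library 1, 2 without Dox library 2, 0 without any 1 Control library, Dox library 3 or Tc libraries 2 or 3). All genes called were 0.215%, 0.0% to 0.0496% under the settings with 0 members, 5.03% with DESeq2, 0.264% with DESeq2 without libraries 3 and 0.0% to 11.3% with 1 library left out, the highest without Dox library 1. The replicate block over 9 libraries left the count in Dox against Control at 5 and in Tc against Control at 0. Cyp2c55 could be counted as a member under these settings and is not read against the shares. The cause of these changes was not tested, beyond that fits of fewer libraries estimate the spread from fewer values. Cyp2c40 and Cyp2c69 kept their direction in all 21 alternatives in every comparison, and were called in Dox against Control in 19 and 18 of them. Leaving out 1 library where a group then holds 2 assumes 1 spread for all groups. At these depths the Control level of Cyp2c55, 2 to 5 reads, limits how precisely its rise can be stated, and counts in paralogs depend on reads that map to 1 copy only.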

Other observations

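The genes outside the cluster whose log2(normalized count + 1) was most correlated with Cyp2c29 over the 9 libraries, among 9366 genes with a mean of at least 50, were Ces2a (Pearson r = 0.980), a carboxylesterase gene, Sgta (0.979), Cyp3a59 (0.978), the taurine transporter gene Slc6a6 (0.974) and Cyp8b1 (0.970), the sterol hydroxylase gene that sets the cholic acid share of bile acids. For Cyp2c55 they were Amd1 (0.976), a gene of polyamine synthesis, Adam11 (0.975), Cyp4f15 (0.967), D930016D06Rik (0.966) and Cyp8b1 (0.964). The points share libraries 3 that resemble mixtures of libraries 1 and 2 and fall into treatment groups, so these values are a description of likeness. Cyp8b1 had 1371, 1332 and 1437 normalized counts in Control, 2676, 1666 and 2215 in Dox and 2019, 1284 and 1729.9 in Tc, with library 2 the lowest of each group. Ces2a had 1751, 1447 and 1555 in Control, 5314, 2557 and 4117 in Dox and 4684, 1405 and 3431 in Tc, where, as for Cyp2c29, Tc 2 was within or near the Control range and the other Tc libraries above it.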
